A study of Mus musculus with 67 samples.

Results

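The comparison of caloric restriction (CR) with ad libitum (AL) feeding in young adults asks whether a reduced diet had altered gene expression in the striatum by about the age at which mice are fully grown. It holds 19 of the 67 arrays of the series, chosen by the labels alone: 9 CR mice aged 174 to 194 days (4 males, 5 females) and 10 AL mice aged 169 to 194 days (5 of each sex). All were C57BL/6 mice, each array is 1 mouse, and the mean age was 186.8 days in CR and 184.9 days in AL. AL mice had free access to regular feed throughout. CR mice ate regular feed to 13 weeks of age, were then given a fortified feed at 90% for 1 week and 75% for 1 week, and stayed at 60% until they were killed. The fortified feed and the smaller ration came together, so their effects cannot be told apart. The other 38 adult arrays, from mice at middle and old age on the same 2 diets, were used to estimate spread and to compare ages.

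The striatum is made up largely of GABAergic medium spiny neurons, which receive dopamine from the midbrain and glutamate from the cortex, and it governs movement, habit and reward, feeding included. A shortage of food is known to lower insulin and IGF1 signaling and mTOR activity, which drive protein synthesis and growth, to engage the energy sensor AMPK, the sirtuins and FoxO transcription factors, and to raise circulating glucocorticoids. Genes of these pathways, of striatal neurons, of protein synthesis and turnover, of mitochondria and of the other cell types of the tissue were therefore described as groups, beside all genes tested.

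No gene passed the test for diet in young adults. Scores are Z scores, which give each array a mean of 0 with an SD of 1 across all its features, so differences are in Z units (Z) and no fold change can be given. Of 4257 features with a mean score above 0 over the adult arrays, 0 passed a Benjamini-Hochberg adjusted p of 0.05 in limma, which is 0% of those tested (smallest adjusted p = 0.861). At an unadjusted p under 0.05 there were 20 features (0.470%), 7 of them higher in CR (0.164%) and 13 lower (0.305%), where evenly spread p-values would give about 213. Because the samples are whole tissue, a lower score from fewer cells of a type and one from less RNA per cell cannot be told apart here or below.

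The differences were small, and most were smaller than the uncertainty of a single feature's difference. Over the tested features, 2157 had a positive and 2100 a negative difference, the median size was 0.0583 Z, and 95% lay within 0.145 Z of 0. The SE of a feature's difference had a median of 0.0742 Z, and the 95% confidence interval had a median half-width of 0.149 Z. For 4230 features (99.4%) the whole interval lay within 0.5 Z of 0. That bound is wider than the lowest and highest differences themselves, -0.291 and 0.264 Z. Differences smaller than such a half-width could not be told from none. In none of the 4257 features did the CR and AL mice fail to overlap.

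Of the young arrays 16 resembled one another (median correlation of pairs 0.981), and 3 arrays stood apart from them. These were AL male replicate 3, AL female replicate 3 and CR female replicate 4, whose median correlation was 0.983 among themselves and 0.917 against the other 16, and whose median score was -0.07 to -0.06 against -0.02 to 0.06. They make up 2 of 10 AL and 1 of 9 CR arrays, 1 of 5 AL males and 0 of 4 CR males. Within an array, deviations from the mean array also repeated every 22 features along the table (median correlation 0.482, against -0.004 at 11 features). The source of this regular pattern was not tested. Differences below are given with all 19 arrays. For many genes and lists the value without the 3 arrays, or after the medians of each array's rows and columns of 22 features were removed (the row and column correction), stands beside it. Of 142 tested features of the named genes, 80 moved by over 1.5 times or turned sign without the 3 arrays (16 turned), and 107 after the correction (20 turned), mostly towards smaller sizes (117 and 116 of 142). A value printed once is thus open to such a shift. The part of either pattern in the differences was not tested further.

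The genes with the smallest unadjusted p, 12 in each direction, each had an adjusted p of 0.861. Those higher in CR held 2 of the 7 tested striatal neuron markers, a list of which 4 were higher and 3 lower (median 0.00375 Z). After the row and column correction 6 of the 7 markers were higher (median 0.0724 Z). Rasd2, also called Rhes, is a small GTP-binding protein enriched in medium spiny neurons, where it dampens dopamine receptor signaling and acts on mTOR. Its score in AL mice ran from -0.09 to 0.22 with a median of 0.11, and in CR mice from 0.07 to 0.34 with a median of 0.27. The difference was 0.130 ± 0.0540 Z (SE), 8 of 9 CR mice lay above the AL median, and the 2 arms overlapped (two-sided exact permutation test within sex, p = 0.00517, not adjusted for other genes). It was 0.108 Z without the 3 arrays and 0.0928 Z after the row and column correction.

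Ppp1r1b encodes DARPP-32, the phosphoprotein through which medium spiny neurons integrate dopamine and glutamate signals. It scored 0.14 to 0.67 (median 0.465) in AL and 0.10 to 0.89 (median 0.72) in CR mice, a difference of 0.203 ± 0.105 Z (exact permutation p = 0.0751). The lowest CR value and the 2 lowest AL values were those of the 3 arrays that stand apart, and the difference was 0.196 Z without them. After the row and column correction it was 0.0973 Z.

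Several other genes leading in the direction of CR act in RNA or protein control. Norad, a long noncoding RNA that sequesters Pumilio RNA-binding proteins, scored 0.17 to 0.57 in AL (median 0.34) and 0.28 to 0.61 in CR mice (median 0.49). Its difference was 0.133 ± 0.0581 Z, with 8 of 9 CR mice above the AL median (exact permutation p = 0.0316), and it stayed between 0.121 and 0.125 Z without the 3 arrays and after the correction. Ube2e1, a ubiquitin-conjugating enzyme, scored 0.21 to 0.56 in AL and 0.33 to 0.73 in CR mice (difference 0.144 ± 0.0661 Z, exact permutation p = 0.0231). A second tested feature of Ube2e1 differed the other way, by -0.0715 ± 0.0842 Z, so the 2 features of this gene disagree. Smg6, the endonuclease of nonsense-mediated decay, differed by 0.119 ± 0.0599 Z, with 7 of 9 CR mice above the AL median, and by 0.0712 Z without the 3 arrays and 0.0546 Z after the correction.

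The remaining leading genes with positive differences were D930020B18Rik, Apcdd1, Zkscan17, Cyrib, Ccdc191, Ccdc30 and Ehd4. D930020B18Rik had the smallest difference of the 12, 0.0818 ± 0.0362 Z, and was larger without the 3 arrays (0.105 Z). Apcdd1, an inhibitor of Wnt signaling at the cell surface, was above the AL median in 9 of 9 CR mice (0.0955 ± 0.0428 Z), but after the row and column correction its difference was -0.0301 Z. Cyrib, a regulator of the actin cytoskeleton, and Ehd4, an endosomal recycling protein, differed by 0.139 ± 0.0632 and 0.164 ± 0.0844 Z. Without the 3 arrays these were 0.0788 and 0.0988 Z.

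The 3 smallest unadjusted p among genes with negative differences were those of Rbm19, Dhx38 and Snrpe. Rbm19 takes part in the processing of ribosomal RNA. It scored 0.72 to 1.01 in AL (median 0.855) and 0.52 to 1.00 in CR mice (median 0.72), a difference of -0.155 ± 0.0586 Z, and 8 of 9 CR mice lay below the AL median (exact permutation p = 0.0204). The only CR mouse above that median was the array that stands apart, and without the 3 arrays the difference was -0.166 Z (exact permutation p = 0.0114). Dhx38, the helicase of the second step of splicing, scored 0.67 to 0.94 in AL and 0.57 to 0.86 in CR mice. It differed by -0.118 ± 0.0462 Z, again with 8 of 9 CR mice below the AL median (exact permutation p = 0.00740), by -0.114 Z without the 3 arrays and by -0.0539 Z after the correction. Snrpe, the Sm protein E of the spliceosomal core, scored 2.08 to 2.47 in AL and 1.75 to 2.36 in CR mice, and its difference of -0.144 ± 0.0619 Z had an exact permutation p of 0.101.

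Grpel1, Ndufv2 and Gstm1 were also among the 12. Grpel1, the exchange factor of the mitochondrial import chaperone, scored 0.46 to 0.74 (median 0.63) in AL and 0.44 to 0.61 (median 0.51) in CR mice. All 9 CR mice lay below the AL median, and the difference was -0.0892 ± 0.0423 Z (exact permutation p = 0.0288). Without the arrays that stand apart it was -0.0812 Z (exact permutation p = 0.0694). After the row and column correction it was -0.0316 Z. Ndufv2, a subunit of respiratory complex I, differed by -0.105 ± 0.0508 Z (exact permutation p = 0.0353), with 0.56 to 0.78 in AL and 0.39 to 0.69 in CR mice. Its difference was -0.0775 Z without the arrays that stand apart (exact permutation p = 0.164) and -0.0838 Z after the correction. Gstm1, a glutathione transferase, differed by -0.0948 ± 0.0454 Z, while its other tested features differed by -0.0615 ± 0.0794 and -0.0055 ± 0.05 Z.

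Other genes of this side included Aimp2, a scaffold of the aminoacyl-tRNA synthetase complex (-0.128 ± 0.0565 Z), the transcription factor Tcf12 (-0.114 ± 0.0544 Z), the orphan receptor Gpr22 (-0.0988 ± 0.0482 Z), the matrix protein Tnc (-0.0815 ± 0.0398 Z) and the growth factor Ptn (-0.0730 ± 0.0379 Z). After the row and column correction Aimp2, Tcf12 and Gpr22 were at -0.0277, -0.0417 and -0.0310 Z. Over all 24 genes, the difference was smaller in size without the 3 arrays for 21, and smaller after the correction for 23.

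**Figure D1:**
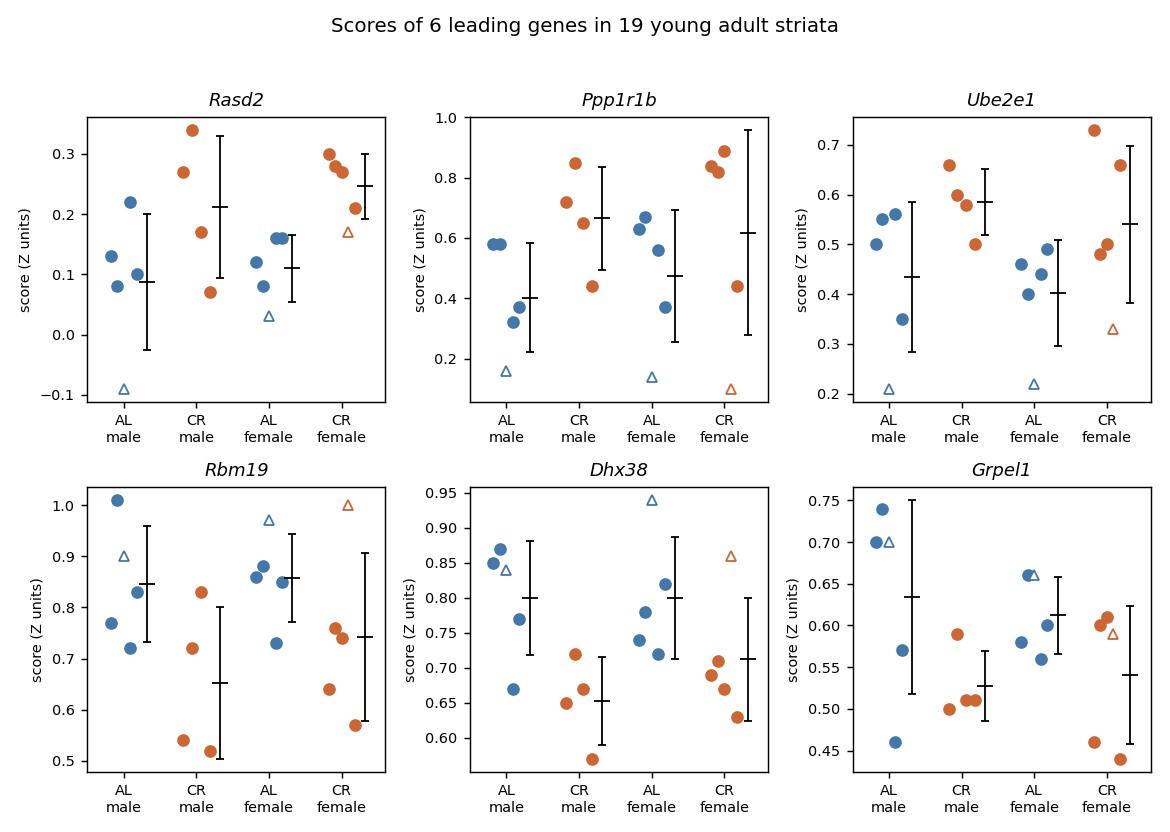
Scores in Z units of 6 of the leading genes in the 19 young adults, with 1 point per mouse by diet and sex, open triangles for the 3 arrays that stand apart, and bars for the mean and SD of each group. CR mice of both sexes tend to lie above AL mice for Rasd2, Ppp1r1b and Ube2e1 and below them for Rbm19, Dhx38 and Grpel1, with overlap between the diets in each gene.

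**Figure D2:**
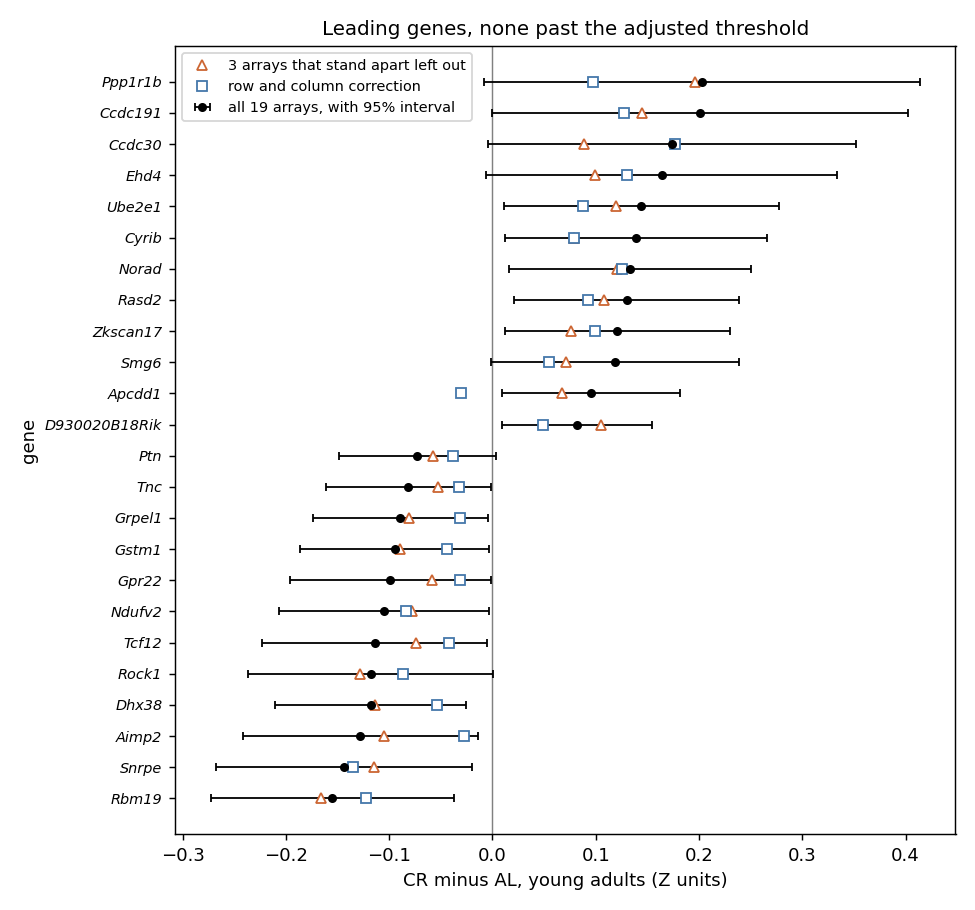
Difference between CR and AL young adults in Z units for the 24 leading genes with its 95% confidence interval (filled points), without the 3 arrays that stand apart (triangles) and after the row and column correction (squares). Of the 24, 23 keep their sign in each of these, and Apcdd1 moves from 0.0955 to -0.0301 Z after the correction.

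The pathways that sense nutrients showed no common direction. Of 62 genes listed for insulin, mTOR and FoxO signaling, 23 were on the array and 13 were tested. Of these, 5 were higher and 8 lower in CR, none passed, and their median difference was -0.0155 Z beside -0.0055 Z over all 2159 genes tested, of which 1026 (47.5%) were higher. Igfbp3, which binds circulating IGF1, differed by -0.141 ± 0.117 Z and Igfbp4, another binding protein, by 0.102 ± 0.0845 Z. Igfbp5 (0.0222 ± 0.0442 Z) and the ligands Igf1 (0.0355 ± 0.0764 Z) and Igf2 (-0.0110 ± 0.0485 Z) were within 1 SE of 0. Among signaling proteins, the adaptor Shc1 scored 0.23 to 1.03 in AL and 0.30 to 0.79 in CR mice, a difference of -0.138 ± 0.0964 Z (exact permutation p = 0.222). The kinase Gsk3b differed by -0.0670 ± 0.0618 Z, the mTORC1 scaffold Rptor by -0.0597 ± 0.0867 Z, the mTORC1 inhibitor Tsc1 by -0.0187 ± 0.0534 Z, the FoxO and p53 target Sesn1 by -0.0783 ± 0.0798 Z and the ribosomal S6 kinase Rps6ka3 by 0.0095 ± 0.0397 Z. The 14-3-3 proteins Ywhae and Ywhab, which hold FoxO factors in the cytoplasm, differed by 0.0577 ± 0.0507 and -0.0155 ± 0.0535 Z. Mtor, Irs1 and Foxo1 were on the array but under the filter.

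Of the AMPK and sirtuin list, 8 genes were tested, 4 higher and 4 lower, with a median of 0.0211 Z. Prkaa1, the catalytic subunit alpha 1 of AMPK, scored 0.85 to 1.53 (median 1.10) in AL and 0.89 to 1.55 (median 0.95) in CR mice. It differed by -0.119 ± 0.0810 Z, and 8 of 9 CR mice were below the AL median (exact permutation p = 0.236). The regulatory subunits Prkab1 and Prkab2 differed by 0.0775 ± 0.101 and -0.0915 ± 0.117 Z. Sirt1, the nuclear deacetylase that depends on NAD, differed by 0.0852 ± 0.0728 Z with all arrays and by 0.0025 Z without the 3 that stand apart. The NAD-consuming enzyme Parp1 differed by 0.105 ± 0.0806 Z (0.00236 Z after the correction), the NAD kinase Nadk by -0.0728 ± 0.0798 Z, the LKB1 partner Cab39 by 0.0533 ± 0.0679 Z (-0.01 Z without the 3 arrays) and the CREB coactivator Crtc1 by -0.0110 ± 0.0844 Z.

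The 4 tested genes stood for the hormones of fasting, and 2 of the 4 were higher. The glucocorticoid receptor Nr3c1 scored 0.32 to 0.81 in AL and 0.24 to 0.77 in CR mice (difference 0.0442 ± 0.0626 Z). Txnip, an inhibitor of glucose uptake that responds to glucose, scored -0.10 to 0.79 in AL and -0.09 to 0.59 in CR mice, and its difference of -0.110 ± 0.1 Z was -0.0325 Z without the 3 arrays. The growth hormone receptor Ghr (-0.0020 ± 0.0366 Z) had the narrowest interval of the 4, and the thyroid hormone receptor Thra (0.0168 ± 0.0996 Z) a wide one. The glucocorticoid targets Fkbp5 and Sgk1 were on the array under the filter. No gene of the neuropeptide list, which holds the opioid and granin peptides, matched a feature with 1 symbol.

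Striatal neuron markers were described in turn. Of 36 listed markers 10 were on the array and 7 were tested, while Foxp1, Foxp2 and Rarb were under the filter. Their defining members Ppp1r1b and Rasd2 were above the array mean in most mice. The listed dopamine receptors and opioid peptide precursors, which also define these neurons, matched no feature with 1 symbol. The table used here holds only a part of the genes the study measured. Strn, a calmodulin-binding scaffold abundant in striatal dendrites, scored -0.17 to 0.70 (median 0.495) in AL and 0.14 to 0.84 (median 0.63) in CR mice. It differed by 0.178 ± 0.103 Z with 8 of 9 CR mice above the AL median (exact permutation p = 0.169), and by 0.0975 Z without the 3 arrays. With all 19 arrays the other markers were near 0: Arpp19, a regulator of protein phosphatase, differed by 0.00375 ± 0.0525 Z, the transcription factors Meis2 and Sox11 by -0.0307 ± 0.0451 and -0.00125 ± 0.0581 Z and the actin crosslinker Actn2 by -0.0217 ± 0.0708 Z. After the correction Arpp19 was at 0.0773 Z, Meis2 at 0.0724 Z and Actn2 at 0.0135 Z. Of the 7 markers, 4 were higher with all arrays, 5 without the 3 arrays and 6 after the correction. The list's median was 0.00375 Z, but 0.0413 Z without the 3 arrays and 0.0724 Z after the correction. Averaged over its 7 features, the list scored 0.284 to 0.436 (median 0.374) in AL and 0.339 to 0.509 (median 0.464) in CR mice, with overlap.

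Downstream of the dopamine receptors, 8 of 11 tested genes of dopamine and cAMP signaling were higher in CR (72.7%, beside 47.5% of all genes). Their median of 0.0420 Z stayed above 0 in 38 of 38 alternative analyses (0.00853 to 0.0833 Z), which reuse the same mice. It was 0.0247 Z without the 3 arrays, 0.0917 Z in young males and 0.0060 Z in young females. At middle age it was 0.0035 Z and at old age -0.000667 Z. None of the 11 genes passed. The inhibitory G protein subunit Gnai2 scored 0.28 to 0.75 in AL and 0.43 to 0.88 in CR mice, a difference of 0.149 ± 0.0789 Z with 7 of 9 CR mice above the AL median (exact permutation p = 0.0614). A second Gnai2 feature differed by 0.0095 ± 0.0696 Z. The calcium-dependent kinase Camk2d (-0.0815 ± 0.0432 Z, and -0.00657 Z after the correction) and the G protein subunit Gnaq (-0.0795 ± 0.0567 Z) differed in the other direction, as did Prkaca, the catalytic subunit of protein kinase A, which had the lowest value of the list (-0.149 ± 0.116 Z).

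Ribosomal protein genes leaned furthest to one side among the longer lists. Of 50 tested, 39 (78.0%) were higher in CR mice, beside 47.5% of all genes, with a median of 0.0374 Z and a range of -0.0808 to 0.126 Z. None passed, and of their 88 features 0 were at an unadjusted p under 0.05. The small subunit gave 17 of 19 higher and the large subunit 22 of 31. By gene, Rplp1 of the acidic stalk scored 0.343 to 0.987 in AL and 0.257 to 1.01 in CR mice over its 3 features, a difference of 0.108 ± 0.0880 Z. Rps4x differed by 0.0926 ± 0.0742 Z. Rpl9 and Rpl13, named because they had the largest differences of the list, differed by 0.126 ± 0.105 and 0.121 ± 0.110 Z. The 50 genes were measured on the same 19 arrays, so their signs are not independent of one another.

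The mean of the ribosomal features in each mouse shows that spread. It was 0.409 to 0.693 (median 0.532) in AL and 0.421 to 0.675 (median 0.586) in CR mice. The 3 arrays that stand apart were the lowest of the 19, at 0.409 to 0.429, and the highest was an AL male. Without them 38 of 50 genes were higher with a median of 0.0258 Z, and after the row and column correction 42 of 50 with 0.0268 Z. The median was 0.0559 Z in males and 0.0090 Z in females. At middle age it was 0.00775 Z and at old age -0.000375 Z.

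**Figure D3:**
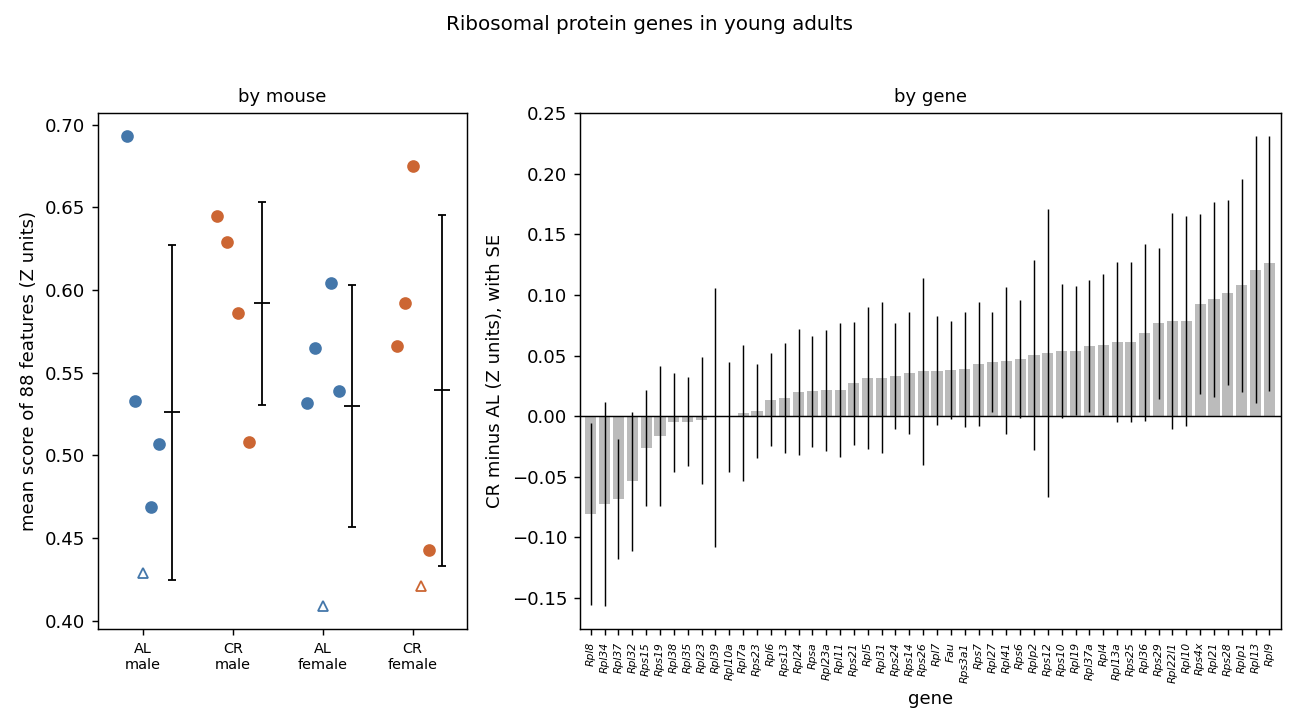
Left, mean score in Z units of the 88 ribosomal protein features in each of the 19 young adults by diet and sex, with open triangles for the 3 arrays that stand apart and bars for the mean and SD of a group; right, the difference between CR and AL for each of the 50 genes with its SE. The 2 diets overlap in both sexes, and 39 of 50 bars are above 0 while most reach less than 0.1 Z.

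Other steps of gene expression were described beside them. Of 11 translation factors 5 were higher (median -0.0132 Z), but 7 without the 3 arrays (0.005 Z) and 8 after the row and column correction (0.0124 Z). Of 30 spliceosome and RNA-binding genes 12 were higher (median -0.0180 Z, and 0.00481 Z after the row and column correction). Within this list, a division by symbol was made after the values were seen. The 6 genes named Snrp or Lsm (Snrpb, Snrpd2, Snrpe, Lsm3, Lsm8 and Lsm14a) were all lower (median -0.0768 Z). They were led by Snrpe, with Snrpd2 at -0.0795 ± 0.0602 Z. Without the 3 arrays 5 of the 6 were still lower (median -0.0469 Z). The splicing regulator Mbnl1 differed by -0.102 ± 0.0571 Z (exact permutation p = 0.211). Of 18 chromatin genes 8 were higher, and Kdm5b, a histone demethylase, differed by 0.137 ± 0.0851 Z with all arrays and by 0.0613 Z without the 3.

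Energy metabolism was divided by respiratory complex, again after the values were seen. Of 31 oxidative phosphorylation genes 14 were higher (45.2%; median -0.00425 Z), but 23 (74.2%) after the row and column correction, when 52.3% of all genes were higher. In complex I, which passes electrons from NADH, 4 of 13 were higher (median -0.0378 Z), but 9 of 13 after the row and column correction (0.0172 Z). In complex IV, cytochrome c oxidase, 4 of 5 were higher (median 0.0996 Z, 0.0475 Z without the 3 arrays and 0.0577 Z after the correction), and in complex V, ATP synthase, 5 of 9. Cox5b scored -0.14 to 0.44 in AL and 0.09 to 0.46 in CR mice, a difference of 0.109 ± 0.0687 Z that was 0.00357 Z after the correction. Of 6 glycolysis and TCA cycle genes 2 were higher (median -0.0210 Z, and 0.0131 Z without the 3 arrays).

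Protein turnover and stress genes were evenly divided. In the ubiquitin-proteasome list 14 of 31 were higher (median -0.0157 Z), with Rbx1, the RING subunit of cullin ligases, at 0.131 ± 0.0905 Z and the ligase Huwe1 at 0.0980 ± 0.0701 Z. In the autophagy and lysosome list 6 of 11 were higher (median 0.0045 Z), with the lysosomal membrane protein Lamp1 at -0.0995 ± 0.0779 Z (-0.0111 Z after the correction) and the lysosomal peptidase Ctsa at 0.0520 ± 0.0531 Z. Among chaperones 8 of 15 were higher. The chaperonin subunit Cct7 scored -0.41 to 0.59 in AL and 0.17 to 0.52 in CR mice, a difference of 0.183 ± 0.101 Z, or 0.0912 Z without the 3 arrays (exact permutation p = 0.1 with all arrays). The HSP40 protein Dnaja1 differed by -0.0930 ± 0.0736 Z. Among antioxidant genes 6 of 12 were higher, Gpx3, the secreted glutathione peroxidase, differed by -0.0765 ± 0.0458 Z and Nfe2l1, a transcription factor of proteasome and antioxidant genes, by -0.114 ± 0.0740 Z (-0.00817 Z after the correction). The lowest of that list was the peroxiredoxin Prdx2, at -0.136 ± 0.102 Z. Sod1 and Cat were under the filter.

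Markers of other cell types were described beside these groups. Of 6 astrocyte genes 4 were higher in CR (median 0.0555 Z), 3 without the 3 arrays (0.0119 Z) and 6 after the row and column correction (0.0636 Z). Sparc, a secreted matrix glycoprotein, differed by 0.0907 ± 0.0499 Z (0.57 to 0.84 in AL, 0.56 to 0.89 in CR mice, exact permutation p = 0.0776), Ndrg2 by 0.124 ± 0.0848 Z (0.0775 Z without the 3 arrays) and Cst3, cystatin C, by 0.0617 ± 0.0972 Z (-0.0288 Z without them). The mean over the astrocyte features was 0.472 to 0.910 in AL and 0.497 to 0.840 in CR mice. Microglia and immune markers gave 2 of 4 higher (means of 0.758 to 1.02 in AL and 0.727 to 0.978 in CR mice), endothelium and pericyte markers 1 of 4 (0.684 to 0.786 and 0.642 to 0.790), and blood markers 2 of 4 (0.402 to 0.610 and 0.395 to 0.588, with Hba-a1 at -0.0110 ± 0.0425 Z over its 9 features). Each of these marker means overlapped between the diets. For oligodendrocytes 2 genes, 2 choroid plexus genes and 1 cortical neuron gene were tested, too few to describe a cell type. The part of cell makeup in the differences was not tested.

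A list of 13 genes that the study names was also described, of which 5 matched a feature and 4 were tested. The study names others too, among them Parp1 and Gsk3b, given above. Of the 5, Jag1, a Notch ligand, lay under the filter and had the largest difference, 0.144 ± 0.0810 Z in the fit with no filter (-0.63 to -0.11 in AL, -0.57 to 0.05 in CR mice). The ubiquitin hydrolase Uchl1 scored -0.05 to 0.48 in AL and -0.11 to 0.42 in CR mice (difference 0.0695 ± 0.0820 Z), and Wrn, the Werner syndrome helicase, scored -0.08 to 0.27 and -0.05 to 0.34 (0.0515 ± 0.0483 Z with all arrays and -0.00125 Z without the 3 that stand apart). The chaperone Hsp90aa1 differed by 0.0342 ± 0.0610 Z and Aldh1a2, which makes retinoic acid, by 0.0423 ± 0.0625 Z. Of 15 DNA repair and telomere genes 6 were higher (median -0.0260 Z), with Xpc, which recognizes DNA damage, at -0.103 ± 0.0735 Z.

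**Figure D4:**
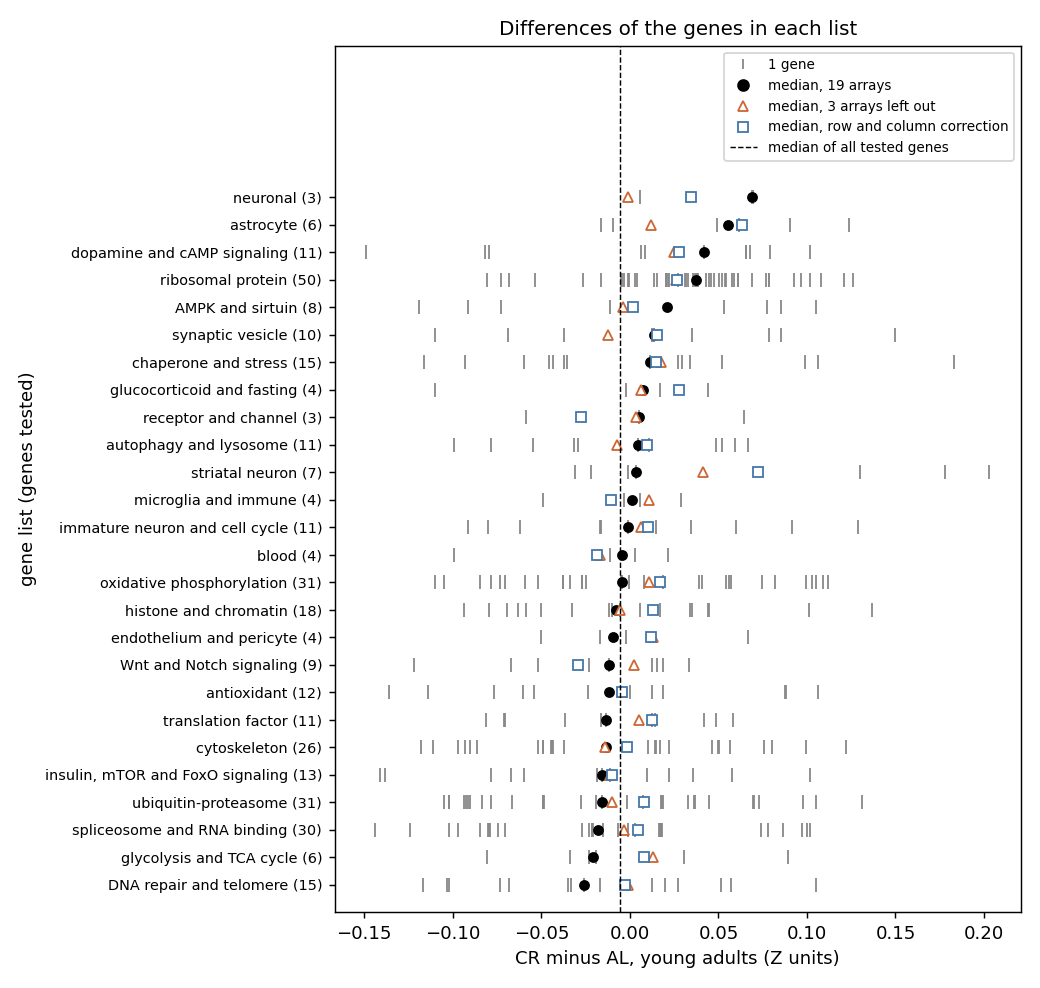
Differences between CR and AL young adults in Z units for each gene of each list (ticks), with the list's median over all 19 arrays (filled points), without the 3 arrays that stand apart (triangles) and after the row and column correction (squares); the dashed line is the median of all 2159 tested genes, -0.0055 Z. The ribosomal protein list has 39 of 50 genes above 0, and most medians lie within 0.05 Z of 0.

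Each sex was also compared alone. In young males 0 features passed, 40 were at an unadjusted p under 0.05 (14 higher and 26 lower), and the median size of a difference was 0.0910 Z. In young females 0 passed, 3 were at an unadjusted p under 0.05, all lower, and the median size was 0.0380 Z, although the median SE was much the same (0.108 Z in males and 0.102 Z in females). The AL males hold 1 array that stands apart and the CR males none, while each female arm holds 1. Without the 3 arrays the SD of the differences over features was 0.0633 Z in males and 0.0658 Z in females, against 0.118 and 0.0581 Z with them.

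In males the smallest unadjusted p belonged to Tnc, the matrix glycoprotein tenascin C, with a difference of -0.165 ± 0.0579 Z (0.0020 ± 0.0545 Z in females). Smg6 differed by 0.225 ± 0.0871 Z in males and 0.0140 ± 0.0821 Z in females, Ptn by -0.144 ± 0.0551 and -0.0020 ± 0.0519 Z, and Sorcs3, a neuronal sorting receptor, by -0.401 ± 0.159 and -0.0160 ± 0.150 Z. In females M6pr, the mannose 6-phosphate receptor that carries enzymes to lysosomes, differed by -0.132 ± 0.0620 Z (0.0130 ± 0.0658 Z in males), and Cdk5rap3 by -0.128 ± 0.0634 Z. Rasd2 had nearly the same difference in both sexes, 0.124 ± 0.0786 Z in males and 0.136 ± 0.0741 Z in females. The test of the difference between the sexes called 0 features, with 5 at an unadjusted p under 0.05, so none of these genes was shown to respond differently in males and females. The smallest p with 1 symbol was that of Rab12, a GTPase of lysosomal traffic, with -0.237 ± 0.101 Z in males and 0.0720 ± 0.0955 Z in females (difference of the differences 0.309 ± 0.139 Z).

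The same contrast at other ages drew on 38 other mice. Since the leading genes were chosen for their values in young mice, larger values there are no finding. The 12 genes higher in young CR mice had differences of -0.0450 to 0.121 Z at middle age and -0.0783 to 0.0873 Z at old age, and 9 of 12 were positive at each. The 12 lower genes had differences of -0.0440 to 0.0430 Z and -0.0547 to 0.0417 Z, with 9 of 12 negative at middle and 6 of 12 at old age. Ppp1r1b was 0.203 ± 0.105 Z in young, 0.121 ± 0.102 Z in middle-aged and 0.0427 ± 0.110 Z in old mice. Rasd2 was 0.130, 0.0220 and 0.0403 Z, and Grpel1 was -0.0892, -0.0220 and -0.0547 Z.

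The test of young against the mean of middle and old age called 0 features (8 at an unadjusted p under 0.05, 4 in each direction, smallest adjusted p = 0.809). The smallest p with 1 symbol belonged to Snrpe, whose difference was -0.144 Z in young against 0.0430 and 0.0327 Z at the later ages, an interaction of -0.182 ± 0.0760 Z. Ccdc30 had an interaction of 0.236 ± 0.109 Z, Rbm19 of -0.149 ± 0.0720 Z and Fastk, a mitochondrial RNA-binding protein, of -0.109 ± 0.0532 Z. None passed, so a response confined to youth was not shown for any gene.

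**Figure D5:**
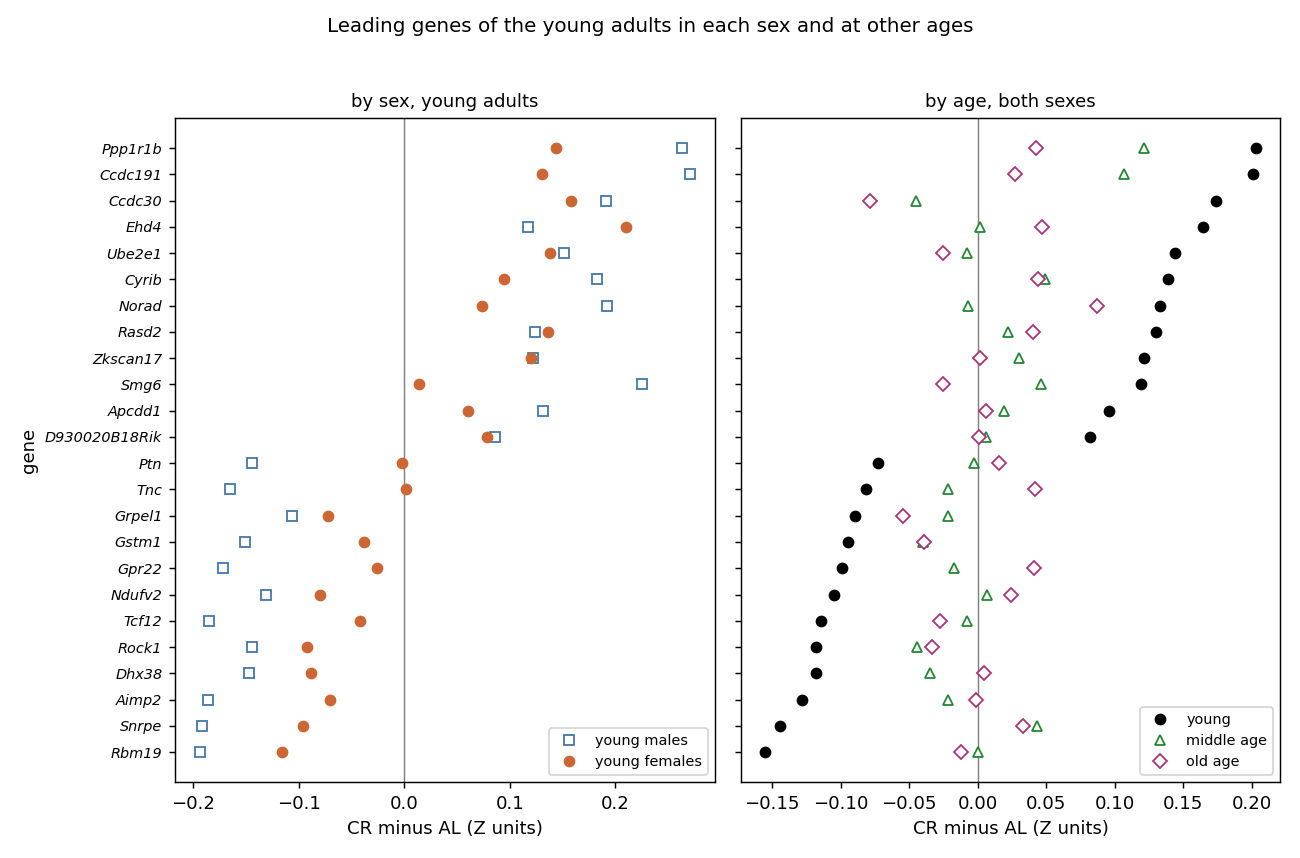
Differences between CR and AL mice in Z units for the 24 leading genes, left in young males and young females, right in young, middle-aged and old mice with both sexes weighted equally. Of 24 genes 23 have the same sign in both sexes, 22 are larger in size in males, and 17 exceed 0.1 Z in size in young mice, 2 at middle age and 0 at old age. The genes were chosen for these young values, so the shared sign and the larger young sizes are no finding. Over all 4257 tested features the median size was also larger in young males, 0.0910 Z against 0.0380 Z in young females.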

How the data were processed

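Striatal RNA (5 µg per mouse) had been hybridised by the authors, 1 mouse per array, to membrane cDNA arrays with a radioactive label. The deposited values are scores: spot values that the authors had converted to Z scores within each array, rounded to 2 decimals. Whether logs were taken first, their base and any background correction are not given in the sources used here. A score has no depth, and the number of arrays limits the precision.

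All 57 adult arrays (12 groups of age, diet and sex) entered 1 fit in limma 3.58.1 (R 4.3.3) with a mean per group; the contrast weighted the sexes equally. Features with a mean score above 0 over the adults (4257) were tested, with Benjamini-Hochberg adjustment at 0.05. Exact permutation tests were two-sided, relabelled diets within sex (31752 relabellings) and are unadjusted. Of 8448 features, 4875 carried 1 gene symbol (224 several, 3349 none), of which 4861 matched the gene table by identifier, and the tested ones stand for 2159 genes; a gene's value in a list is the mean of its tested features. The layout of the array is not given in the sources used here. The row and column correction took rows of 22 features from the repeat seen in the values, and subtracted row and column medians. Arrays of 2 old AL mice were listed end to end in reverse and were turned. An array stood apart where its correlation with the median profile was under 0.95.

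Genes with 1 symbol were named as the 12 of smallest unadjusted p in each direction (none passed), up to 4 in each direction for each sex and interaction, up to 3 of smallest p in each list, every tested member of the striatal, insulin, AMPK and hormone lists, and a list of genes the study names; a few of these are not reported here. Rpl9, Rpl13, Prkaca, Prdx2, Cdkn1c and Ccnd3 were named after their values were seen. The comparison, the members and the lists were chosen with earlier results of these data known. The code was tested on simulated data. Figures used Python 3.11.15 with matplotlib 3.10.9. Alternatives covered the filter, normalization, position, array weights, a block and leaving out arrays.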

Additional observations from a re-analysis of the deposited data

Results flagged for a closer look

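Each of the 24 leading genes was examined in the 4 young groups of diet and sex for a mouse set far from the others of its group by Dixon's criterion. Of 96 such groups 9 held one, where chance gives about 1 in 20, or 4.8. The cause was not tested for any of them.

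On arrays that stand apart, 4 values were low. Cyrib was -0.38 in AL female replicate 3 (others 0.01 to 0.13) and -0.14 in CR female replicate 4 (others 0.11 to 0.21). In AL male replicate 3, Ehd4 was -0.47 (others 0.15 to 0.22) and Zkscan17 was -0.31 (others 0.04 to 0.11). Without the 3 arrays the differences of these genes were smaller: 0.0788 Z for Cyrib, 0.0988 Z for Ehd4 and 0.0763 Z for Zkscan17.

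The other 5 values were on arrays like the rest. Snrpe was 1.75 in CR female replicate 1, with the other CR females at 2.17 to 2.3. Tcf12 was 0.36 in CR female replicate 5 (others 0.51 to 0.57). Gpr22 was 2.04 in CR male replicate 4 (others 1.93 to 1.94), Grpel1 was 0.59 in CR male replicate 2 (others 0.5 to 0.51), and Ptn was 1.62 in AL female replicate 4 (others 1.76 to 1.81).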

How the results depend on the processing

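No feature passed the adjusted threshold in young adults under any alternative fit, leaving out any 1 mouse (0 to 0) and a block for the run of numbers in the titles (0) included. The first steps of the methods' rule, a Z ratio of 1.5 with an unadjusted p and without the ANOVA that followed, called 7 features of 4268 (3 higher, 4 lower), of which 0 remained after adjustment. The count at an unadjusted p under 0.05, 20 above, moved widely: 8 with the young arrays alone, 32 with quantile normalization and with a running position correction, 33 without the 3 arrays that stand apart, 52 with a term for them, 84 with no filter, 105 with the running correction and no filter, 72 with the replicate block, and 591 with array weights, whose estimation did not reach its tolerance (smallest adjusted p = 0.154). Alternatives chosen after seeing the data gave 65 with the row and column correction, 159 with it and no filter, 106 with it and the term, 238 with all 3, 88 with it without the 3 arrays, and 2 with the columns as listed. Leaving out 1 mouse gave 5 to 226: 5 without CR male replicate 1 or AL male replicate 3, 174 without AL male replicate 1 and 226 without CR female replicate 4.

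Nothing in the labels says that runs of title numbers pair the mice. The study's methods state that samples were handled in balanced batches, without naming which mice shared a batch. Deviations of arrays of the same run correlated at a median of 0.498 (-0.624 to 0.97), against 0.0228 between runs, and 9 of 19 arrays correlated best with one of their own run, a hint of shared structure from the data.

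Of 86 named genes under 38 alternatives, 64 never changed sign. Apcdd1 went to -0.0301 with the row and column correction (with or without the filter), -0.00335 with the term added and -0.00598 with the correction and without the 3 arrays; leaving those out alone gave 0.0675. Atp5g1 went to -0.0273 with the correction, Sirt1 to -0.0128 with array weights, and Wrn to -0.00125 without the 3 arrays, -0.0025 with the correction and -0.0119 with both. The cause was not tested.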

Other observations

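Several other groups were described in the same way in young adults, and none of their genes passed the test. Of 10 synaptic vesicle genes 7 were higher in CR (median 0.0136 Z), but 4 without the 3 arrays that stand apart. Syt11, a synaptotagmin that does not bind calcium, differed by 0.150 ± 0.139 Z, and Scamp5, a secretory carrier membrane protein, by -0.110 ± 0.0916 Z. Of 26 cytoskeleton genes 13 were higher (median -0.0133 Z). Of 9 Wnt and Notch genes 4 were higher. Adam10, the protease that cuts Notch and the amyloid precursor protein, had the lowest difference of that list (-0.122 ± 0.0682 Z, and -0.125 Z without the 3 arrays). Of 11 genes of immature neurons and the cell cycle 5 were higher, with the cell cycle inhibitor Cdkn1c at 0.129 ± 0.127 Z and the D-type cyclin Ccnd3 at -0.0915 ± 0.0883 Z. The 3 pan-neuronal genes Nefl, Uchl1 and Ncdn were all higher (median 0.0688 Z), but 1 of 3 without the 3 arrays (median -0.00125 Z).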
